A study of Mus musculus with 4 samples.

Results

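The EGR, NR4A and IER genes are early activation genes, and 10 of them were followed here: Egr1, Egr2, Egr3, Nr4a1, Nr4a2, Nr4a3, Nab2, Ier2, Ier3 and Ier5. They were taken by name, as every probe set whose platform gene symbol was one of these 10. This gave 21 probe sets for 10 of the 18193 genes on the array. The study asked how IL-17-producing T cells of different origins differ. Total RNA of 4 mouse CD4 T cell populations was hybridised to Affymetrix arrays. Donor mice were C57BL/6, aged 8 to 10 weeks, and cells were taken from lymph nodes and spleen. Th0 cells were naive CD4 T cells cultured under Th0 conditions and sorted as negative for a GFP reporter of IL-17 and for Foxp3. Th17 cells were naive CD4 T cells cultured under Th17 conditions and sorted as IL-17 positive and Foxp3 negative. The exFoxp3Th17 cells had the same culture and gate as Th17 but started from Foxp3+ CD4 T cells. Treg cells started from Foxp3+ CD4 T cells, were cultured with IL-2 and were sorted as IL-17 negative and Foxp3 positive. There is 1 array per population, and the sources used here do not give how many mice went into it. No spread between samples can be given and no test was made.

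EGR proteins are zinc finger transcription factors that T cells make soon after the antigen receptor is engaged, through MAP kinase signals to serum response factor and its ETS partners. NAB2 binds EGR proteins and represses their targets, and is itself induced by them. NR4A proteins are orphan nuclear receptors induced by antigen receptor signals with calcium and cAMP inputs, and they help to maintain Foxp3 in regulatory T cells. The IER genes are named for their immediate early response to growth factors and stress, and Ier3 encodes a small regulator of cell survival that NF-kB induces. The messages of these genes are mostly short-lived, so a single array records the state of the cells when RNA was taken after culture and sorting.

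The bases before the transcript starts of 4 members are shown because these members differed most between the arrays (Ier3 and Nr4a3) or carry the sites for which these families are known (Egr2 and Nr4a1). Sequences are from RefSeq on GRCm38.p6, and the table matched 7 members: Egr2, Nr4a1, Nr4a2, Nr4a3, Nab2, Ier3 and Ier5. Each run is the 250 bases before a start, 5′ to 3′ on the gene's strand, with matches to the motifs searched in capitals. The windows are chr17:35821463-35821712 for Ier3, chr4:48045055-48045304 for Nr4a3, chr15:101266596-101266845 for Nr4a1 and chr10:67537619-67537868 for Egr2, all on the plus strand.
Ier3: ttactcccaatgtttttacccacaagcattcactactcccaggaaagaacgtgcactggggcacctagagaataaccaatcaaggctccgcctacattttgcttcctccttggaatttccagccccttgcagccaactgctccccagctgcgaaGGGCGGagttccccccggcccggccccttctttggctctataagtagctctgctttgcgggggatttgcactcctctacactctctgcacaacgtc
Nr4a3: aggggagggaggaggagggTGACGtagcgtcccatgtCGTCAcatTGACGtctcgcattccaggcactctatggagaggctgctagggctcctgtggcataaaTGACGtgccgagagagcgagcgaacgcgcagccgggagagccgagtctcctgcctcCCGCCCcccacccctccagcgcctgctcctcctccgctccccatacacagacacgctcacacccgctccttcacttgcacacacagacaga
Nr4a1: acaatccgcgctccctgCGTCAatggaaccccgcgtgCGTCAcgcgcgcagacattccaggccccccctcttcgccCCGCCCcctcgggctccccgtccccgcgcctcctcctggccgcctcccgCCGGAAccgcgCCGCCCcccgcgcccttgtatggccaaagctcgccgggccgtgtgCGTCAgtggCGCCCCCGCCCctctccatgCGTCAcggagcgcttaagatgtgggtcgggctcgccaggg
Egr2: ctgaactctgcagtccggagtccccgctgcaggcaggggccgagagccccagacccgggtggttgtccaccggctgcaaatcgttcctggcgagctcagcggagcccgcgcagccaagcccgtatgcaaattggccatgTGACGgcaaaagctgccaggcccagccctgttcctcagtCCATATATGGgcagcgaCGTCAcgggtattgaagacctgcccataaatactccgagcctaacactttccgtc

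Each motif was searched on both strands, and its share was taken over 32536 distinct windows of the same length in the table. The cAMP response element core TGACG, present in 17.9% of windows, had 4 matches before Nr4a1, 4 before Nr4a2 and 4 before Nr4a3, and 2 in each of the 3 overlapping Egr2 windows, the printed one included. The full element TGACGTCA, in 1.56% of windows, had no match before any of the 7 members. A CArG box, the binding sequence of serum response factor, lay in 1.48% of windows and in 4 of the 5 Egr2 windows. Of those 4 windows, 3 overlap and share 1 box, which lies 72 to 63 bases before the start in the run printed above. None of the other members' windows held one. The ETS core CCGGAA, in 12.1% of windows, was found before Nr4a1 and before 1 Egr2 start. The EGR-type site GCGGGGGCG, in 2.597% of windows, was found once, before Nr4a1, where it overlaps a GC box. The GC box GGGCGG, in 33.0% of windows, was the only one found before Ier3, Ier5 and Nab2. The TATA box letters TATAAA, in 12.3% of windows, were found only before Nr4a2. That match lies on the opposite strand, 164 to 159 bases before the start, so it is not read as a TATA box of this start. There was no match to the AP-1 site TGANTCA, in 6.73% of windows, to the EGR site GCGTGGGCG, in 0.541%, or to the NR4A site AAAGGTCA, in 1.35%. A match is a run of letters, and binding was not measured.

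**Figure D1:**
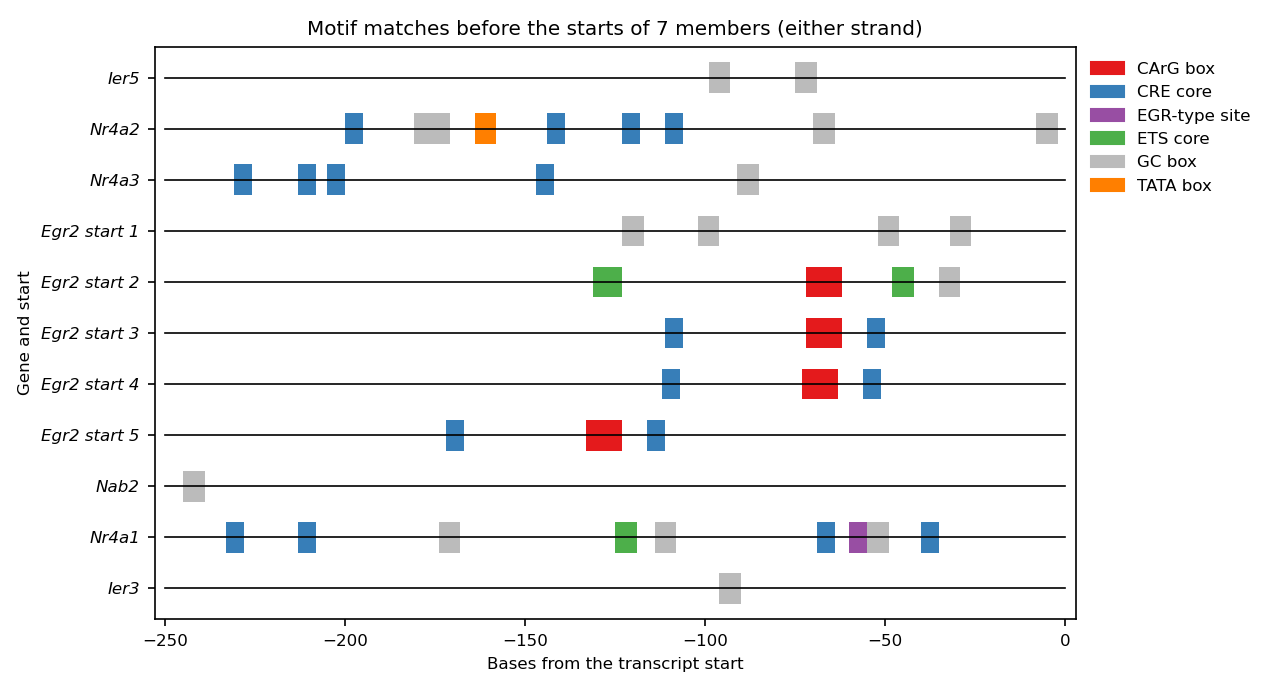
Motif matches on either strand in the 250 bases before the transcript starts of 7 members, with the distance from the start in bases on the x axis and 1 row per start (5 for Egr2). The 3 NR4A genes each have 4 matches to the CRE core, and the CArG box appears only in rows of Egr2.

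Signals are MAS5 intensities on a linear scale. The floor, 12.1, is the pooled median signal of probe sets other than controls, and lower values were raised to it before ratios were taken. A gene is called higher or lower where 2 arrays differ by 2-fold or more and the higher lies above the floor. Each gene is read from its brightest probe set. By that probe set 9 members exceeded the floor on all 4 arrays, and Egr2 did so on 2. Of the 21 probe sets, 10 exceeded it on every array, 8 on some and 3 on none.

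The arrays were read for their labels first. Foxp3 had a signal of 584.9 in Treg and of 4.3 to 8.0 elsewhere, as gated, whereas Il17a was below the floor on all 4 arrays. Of 12 CD4 T cell markers, 10 were measured and all 10 were above the floor on every array, with sums of 13843 to 17469. Markers of cells other than T cells were low. Their summed signals reached at most 66.7 for B cells (in Treg, against 17.0 to 28.6 elsewhere), 50.2 for myeloid cells, 37.7 for dendritic cells, 16.2 for stroma, 6.4 for erythroid cells and 6.0 for NK cells. The CD8 genes summed to 66.0 to 97.0. Among them Cd8a was near the floor (11.1 to 14.3) and Cd8b1 had 51.7 to 83.5, beside 48.3 to 109.6 for Cd4 itself. Signals of different probe sets do not compare as amounts of message, so these values do not separate CD4 from CD8 cells. The exFoxp3Th17 array alone carried Xist, the X-inactivation RNA of female cells (3766 against 7.4 to 10.8), and lacked Y-linked Eif2s3y (4.7 against 654.5 to 875.8). In every comparison with exFoxp3Th17, this difference and the cell population cannot be told apart.

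**Figure D2:**
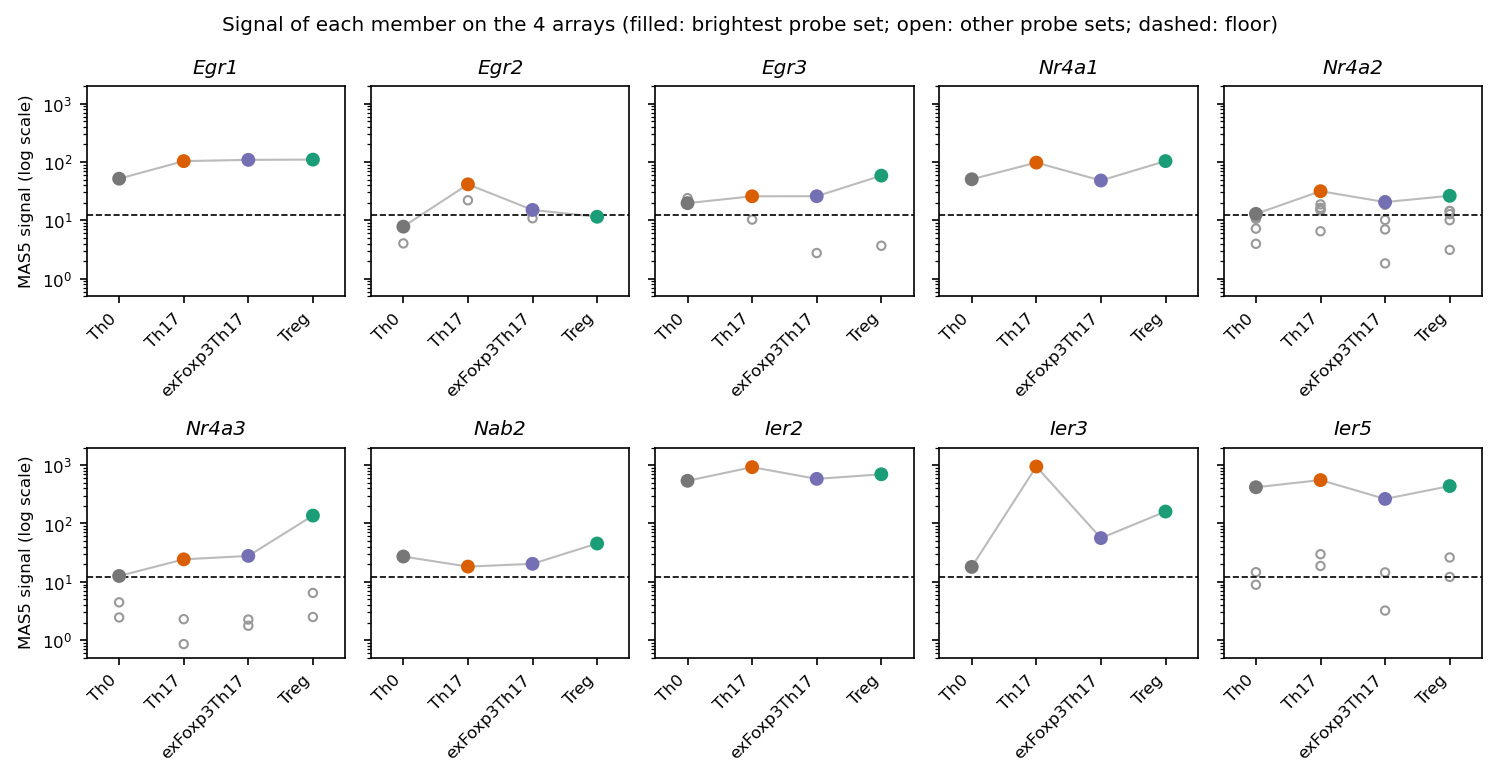
MAS5 signal (log axis) of the 10 members on the 4 arrays, with filled points for the brightest probe set, open points for the other probe sets and a dashed line at the floor of 12.1. Ier3 spans 18.02 to 944 and Nr4a3 12.6 to 136.3, while the other 8 members stay within a narrower range.

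Among the EGR factors, Egr1 had a signal of 51.7 in Th0, 109.7 in Treg, 103.3 in Th17 and 108.7 in exFoxp3Th17. It was lowest in Th0 and nearly level on the other 3 arrays. It was called higher in Treg than in Th0 (2.12-fold) and in exFoxp3Th17 than in Th0 (2.10-fold), and lay just under the threshold in Th17 (log2 ratio 0.9994). These are bulk RNA samples, so fewer cells with a message and less message per cell cannot be told apart, here and below.

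Egr2, which with Egr3 restrains T cell activation and takes part in anergy, had a signal of 7.8 in Th0, 11.5 in Treg, 41.4 in Th17 and 15.1 in exFoxp3Th17. It stood above the floor clearly in Th17 and narrowly in exFoxp3Th17. Th17 was at least 3.42-fold above Th0 and at least 3.42-fold above Treg, and exFoxp3Th17 was 2.75-fold below Th17. The second Egr2 probe set was also highest in Th17, with 22.1 and 4.0 to 11.2 on the others, all below the floor. Its log2 ratio of Th17 to Th0 was at least 0.87, a bound that is short of 2-fold. Both Egr2 probe sets are dim: with a floor 2 times as high the calls in Th17 against Th0, Th17 against Treg and exFoxp3Th17 against Th17 were lost.

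Egr3 had a signal of 19.7 in Th0, 58.3 in Treg, 25.8 in Th17 and 25.9 in exFoxp3Th17. Treg alone was high, at 2.96-fold above Th0, 2.26-fold above Th17 and 2.25-fold above exFoxp3Th17. A second Egr3 probe set did not share this pattern. It read 24.0 in Th0 and was below the floor on the other 3 arrays (10.3 in Th17, 3.7 in Treg and 2.8 in exFoxp3Th17), so that its log2 ratio of Treg to Th0 was -0.99 where the brighter probe set gave 1.57. The direction of Egr3 between Treg and Th0 thus depends on the probe set. Calls of Th17 and exFoxp3Th17 as lower than Treg were lost with the floor as a pseudocount (log2 ratio -0.89 each). They were also lost with the mean of probe sets (-0.59 each), as was the call of Treg against Th0 (0.29).

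Nab2, the co-repressor of EGR proteins, had a signal of 27.1 in Th0, 45.3 in Treg, 18.2 in Th17 and 20.3 in exFoxp3Th17. It was highest in Treg and, alone among the 10, lowest in Th17. It was called lower than in Treg in both populations sorted as IL-17 positive, by 2.48-fold in Th17 and 2.23-fold in exFoxp3Th17. Both calls of this dim probe set were lost at 2 times the floor (log2 ratio -0.90 each) and with the floor as a pseudocount (-0.92 and -0.82). Its single probe set gave no call against Th0 on any array.

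Among the NR4A receptors, Nr4a1, the gene of Nur77 and a widely used reporter of antigen receptor signals, had a signal of 50.5 in Th0, 103.5 in Treg, 97.4 in Th17 and 48.1 in exFoxp3Th17. The arrays fell into a high pair, Th17 and Treg, and a low pair, Th0 and exFoxp3Th17. Each step between the pairs was close to 2-fold: exFoxp3Th17 was 2.15-fold below Treg and 2.03-fold below Th17, Treg was 2.05-fold above Th0, and Th17 was 1.93-fold above Th0 and so not called.

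Nr4a2 was dim. Its brightest probe set had a signal of 12.9 in Th0, 26.3 in Treg, 31.6 in Th17 and 20.5 in exFoxp3Th17. Th0 was lowest, with Th17 2.45-fold and Treg 2.04-fold above it. After flooring, none of the 5 other Nr4a2 probe sets differed by 2-fold between any 2 arrays, and 1 of them was below the floor on all 4. Ratios against an array below the floor are bounds, so larger differences may be hidden.

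Nr4a3 had the widest range of the NR4A genes. Its signal was 12.6 in Th0, 136.3 in Treg, 24.3 in Th17 and 27.8 in exFoxp3Th17. Treg stood far above the rest, at 10.8-fold over Th0, 5.61-fold over Th17 and 4.90-fold over exFoxp3Th17. The Treg excess over Th0 was the 35th largest among 11769 genes above the floor. The exFoxp3Th17 array was also called higher than Th0 (2.21-fold), while Th17 was 1.93-fold higher and not called. The 2 other probe sets of Nr4a3 were below the floor on all 4 arrays, so this pattern rests on 1 probe set.

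Ier3 had the widest range of all 10 members. Its signal was 18.02 in Th0, 159.9 in Treg, 944 in Th17 and 56.1 in exFoxp3Th17, and it has 1 probe set. Every array was separated from the next by more than 2-fold, in the order Th17, Treg, exFoxp3Th17, Th0. Th17 was 52.4-fold above Th0, the 16th largest difference upward among the 11769 genes, and 5.90-fold above Treg. The exFoxp3Th17 array was 16.8-fold below Th17 and 2.85-fold below Treg, but 3.12-fold above Th0. Treg was 8.88-fold above Th0, the 49th largest.

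Ier2 and Ier5, relatives that encode nuclear proteins induced by growth signals, were bright on every array. Ier2 had a signal of 538.2 in Th0, 695 in Treg, 921 in Th17 and 580.2 in exFoxp3Th17, and no pair of arrays differed by 2-fold (the span was 1.71-fold). Ier5 had a signal of 417 in Th0, 437 in Treg, 553 in Th17 and 263 in exFoxp3Th17. By this probe set only exFoxp3Th17 against Th17 was called, at 2.10-fold lower, and that call was lost with the mean of probe sets (log2 ratio -0.91). A second Ier5 probe set, with a signal of 14.5 in exFoxp3Th17 cells against 29.8 in Th17, had a log2 ratio of -1.04 for exFoxp3Th17 to Th17. It also passed 2-fold for Th17 to Th0 (1.02), where the brightest probe set gave 0.41. The third Ier5 probe set was dim and above the floor on 2 arrays, Th17 (18.7) and, barely, Treg (12.1).

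**Figure D3:**
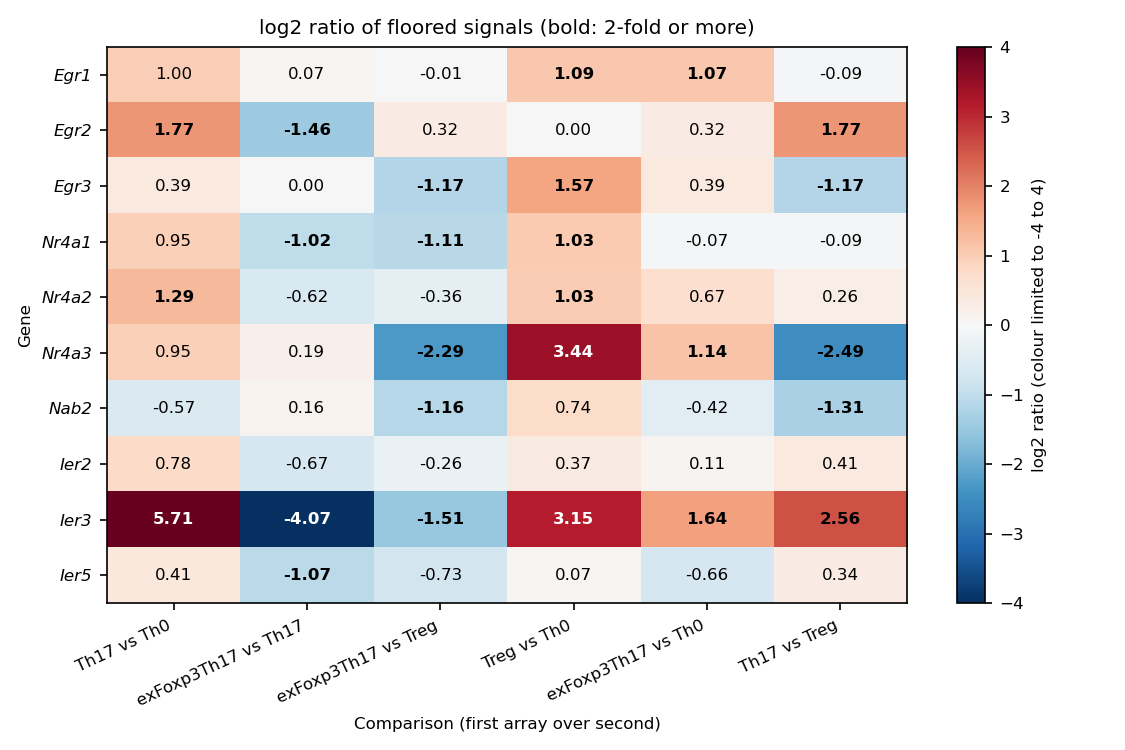
Log2 ratios of floored signals for the 10 members in 6 comparisons, with the first-named array over the second, red for higher and blue for lower; bold marks 2-fold or more. Ier3 is in bold in all 6 comparisons, from 5.71 in Th17 against Th0 to -4.07 in exFoxp3Th17 against Th17, and Ier2 in none.

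Counted over the members, the calls in each comparison went 1 way, except in Th17 against Treg. In Th17 against Th0, 3 of 10 were higher (Egr2, Nr4a2 and Ier3) and 0 lower, where 8.22% of the 11769 genes were called higher and 6.88% lower. The median log2 ratio was 0.95 over the members and -0.02 over all genes. Besides the 3, Egr1, Nr4a1 and Nr4a3 lay just under the threshold, and both other scalings of the arrays placed them over it, for 6 calls. With the floor raised 2 or 4 times, 1 call was left, Ier3. In Treg against Th0, 6 of 10 were higher (Egr1, Egr3, Nr4a1, Nr4a2, Nr4a3 and Ier3) and 0 lower, against backgrounds of 5.56% and 4.95%. The medians were 1.03 over the members and -0.01 over all genes. Of these 6, Nr4a3, Ier3 and Egr3 exceeded 2.9-fold by their brightest probe sets and the rest lay between 2.04-fold and 2.12-fold. With the floor as a pseudocount 3 calls were left.

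In exFoxp3Th17 against Th17, which differ in starting cell and share culture and gate, 4 of 10 were lower (Egr2, Nr4a1, Ier3 and Ier5) and 0 higher, against backgrounds of 7.27% lower and 7.48% higher. The medians were -0.64 over the members and 0.03 over all genes. With the floor added to every value as a pseudocount, 2 calls were left. In exFoxp3Th17 against Treg, both of Foxp3+ origin, 5 of 10 were lower (Egr3, Nr4a1, Nr4a3, Nab2 and Ier3) and 0 higher, against 9.94% lower and 11.3% higher over all genes. The medians were -0.92 and 0.02, and again 2 calls were left with the pseudocount. Both comparisons use the exFoxp3Th17 array, so they are not separate observations of it, and each array enters 3 of the 6 comparisons.

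In exFoxp3Th17 against Th0, 3 of 10 were higher (Egr1, Nr4a3 and Ier3) and 0 lower, against 9.92% higher and 8.42% lower over all genes, with medians of 0.36 and 0.00. In Th17 against Treg, 2 of 10 were higher (Egr2 and Ier3) and 3 lower (Egr3, Nr4a3 and Nab2), against 5.26% and 4.36%, with medians of 0.09 and 0.00.

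Ranked by the signal of their brightest probe sets, 5 members were highest in Th17 (Egr2, Nr4a2, Ier2, Ier3 and Ier5) and 5 in Treg (Egr1, Egr3, Nr4a1, Nr4a3 and Nab2). None was highest in Th0 or exFoxp3Th17, where 27.6% and 32.8% of all genes above the floor had their highest value, against 18.4% in Th17 and 21.1% in Treg. Th0 was lowest for 7 members, exFoxp3Th17 for 2 (Nr4a1 and Ier5) and Th17 for 1 (Nab2), where the shares of all genes were 23.4%, 27.5% and 24.7%. By a further probe set of each, Egr3 was highest in Th0 (24.0) and Nr4a2 in exFoxp3Th17 (22.1). Most neighbours in rank were less than 2-fold apart, such as Egr1 in Treg (109.7) and exFoxp3Th17 (108.7). Beyond 2-fold, the top array was separated from the next for 4 members: Egr2 and Ier3 with Th17 on top, and Egr3 and Nr4a3 with Treg on top.

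For the 2 members whose floored signals spanned 4-fold or more, the genes with the most similar pattern were sought among 8446 others. Likeness was the root mean square difference of log2 floored signals over the 4 arrays after centring each gene. For Nr4a3 they were Zbtb32, a transcriptional repressor (0.28), Arfgef3 (0.29) and Metrnl, a secreted protein (0.31). Zbtb32 had signals of 17.0 in Th0, 156.9 in Treg, 42.2 in Th17 and 51.3 in exFoxp3Th17, the same order as Nr4a3. For Ier3 they were Ltb4r1, a leukotriene B4 receptor (0.39), Cd86, a costimulatory ligand (0.59), and Procr, the protein C receptor (0.64). Ltb4r1 reached 447 in Th17 and 50.1 in Treg, 23.4 in exFoxp3Th17 and 1.3 in Th0. With 4 arrays such likeness describes these arrays only.

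**Figure D4:**
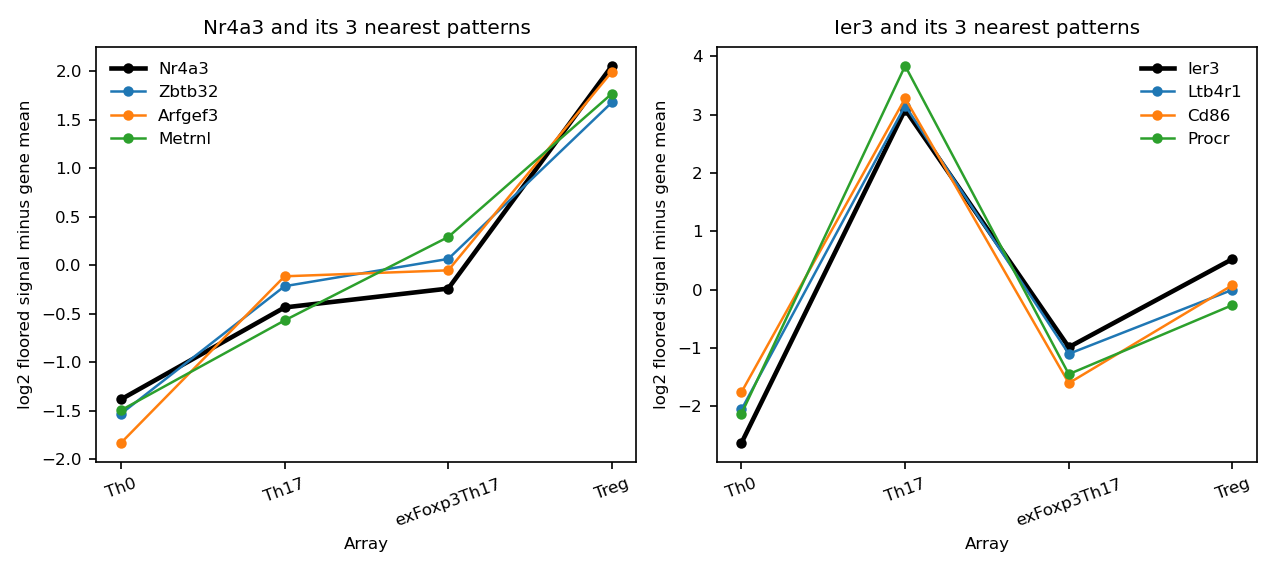
Log2 floored signal minus the gene's mean over the 4 arrays for Nr4a3 (left) and Ier3 (right), each with its 3 nearest genes. The Nr4a3 group peaks in Treg and the Ier3 group in Th17, and both are lowest in Th0.

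Other immediate early genes, a list of 39 of which 37 were above the floor, were divided. In Th17 against Th0, where 8.22% of all genes were higher and 6.88% lower, 18 of the 37 were higher and 4 lower (median log2 ratio 0.99). Those with the largest differences were the AP-1 gene Fosl2 (29.4-fold, 548.2 against 18.7) and the growth arrest gene Gadd45g (25.5-fold), followed by the phosphatase Dusp4 (17.0-fold) and the G protein regulator Rgs1 (10.1-fold). In Treg against Th0, where 5.56% of all genes were higher and 4.95% lower, 10 of the 37 were higher and 2 lower (median 0.49). The higher genes were led by Dusp4 (24.7-fold), Gadd45g (17.3-fold), Fosl2 (10.2-fold) and the cAMP-responsive gene Crem (4.76-fold).

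In exFoxp3Th17 against Th17, where 7.27% of all genes were lower and 7.48% higher, 13 of the 37 were lower and 4 higher (median -0.60). Rgs1 (11.2-fold, 247 against 2759), Gadd45g (8.45-fold), Plk2 (5.76-fold) and the early activation marker Cd69 (5.63-fold) were the lowest. In exFoxp3Th17 against Treg, where 9.94% of all genes were lower and 11.3% higher, 11 of the 37 were lower and 7 higher (median -0.23). The phosphatase Dusp5 was 17.2-fold lower, but Gadd45a was 7.84-fold and Klf4 7.11-fold higher, so the list had calls in both directions. In exFoxp3Th17 against Th0 the list had 13 higher and 6 lower with a median of 0.00, and in Th17 against Treg 10 higher and 3 lower (0.36). The shares over all genes were 9.92% higher and 8.42% lower in the former and 5.26% higher and 4.36% lower in the latter. Of these 37 genes, 16 had their highest signal in Th17 and 7 in Treg, 9 in exFoxp3Th17 and 5 in Th0.

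**Figure D5:**
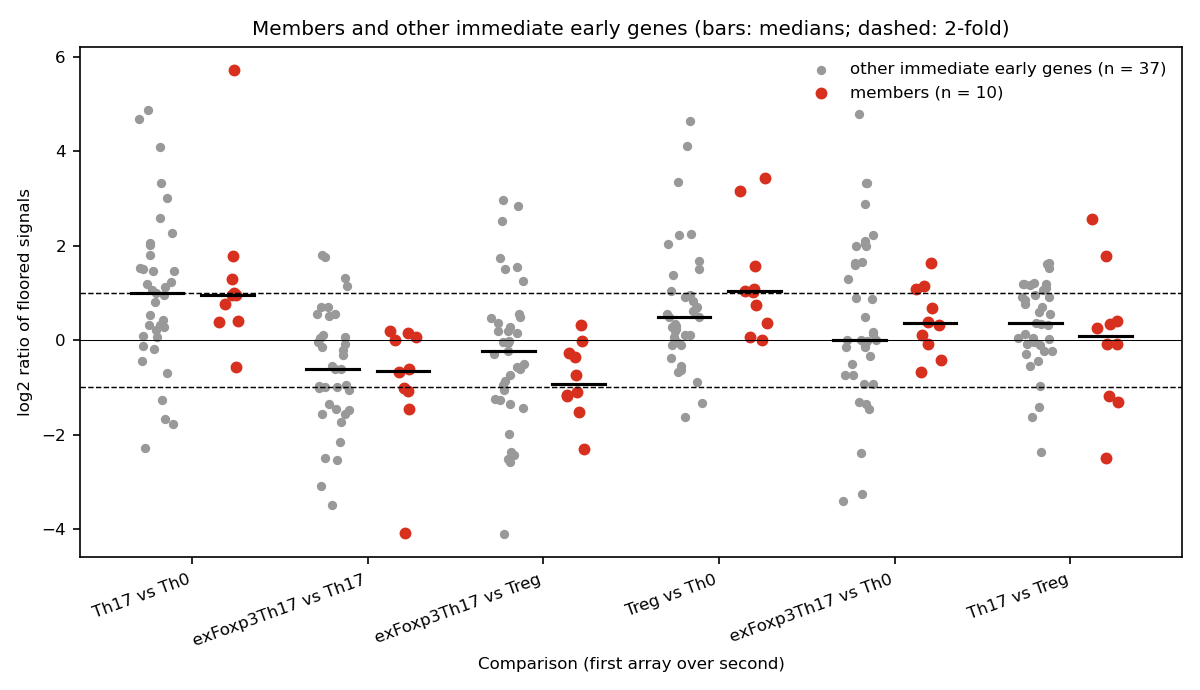
Log2 ratios of floored signals in 6 comparisons for the 10 members (red) and 37 other immediate early genes (grey), with bars at the medians and dashed lines at 2-fold. In exFoxp3Th17 against Treg, 0 of the 10 members and 7 of the other genes are above the upper dashed line, with 11.3% of all genes. Below the lower line are 5 members and 11 of the other genes, with 9.94% of all genes.

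Heat shock genes, which can move with the handling of cells, were given beside these counts because sorting preceded RNA extraction. Of 10, none was called in Th17 against Th0, exFoxp3Th17 against Th17 or Th17 against Treg. The shares of all genes called higher there were 8.22%, 7.48% and 5.26%, and those called lower 6.88%, 7.27% and 4.36%. Hspa1b was higher in Treg than in Th0 (3.00-fold) and in exFoxp3Th17 than in Th0 (2.28-fold). Hsp90aa1 and Hspb1 were lower in exFoxp3Th17 than in Treg, by 2.11-fold and at least 2.11-fold. Over all genes, 5.56% were higher in Treg against Th0, 9.92% higher in exFoxp3Th17 against Th0 and 9.94% lower in exFoxp3Th17 against Treg. The part of heat shock genes in the members' differences was not tested. Of 10 housekeeping genes 7 were measured, and none was called in any of the 6 comparisons. Over all genes, the share called in either direction ranged from 4.36% to 11.3%.

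Of the 6 genes for serum response factor, its ETS partners and the MRTF coactivators, 2 were higher and 1 lower in exFoxp3Th17 against Th0, where 9.92% and 8.42% of all genes were called. In Th17 against Th0, 1 was higher and 1 lower, where 8.22% and 6.88% of all genes were. In exFoxp3Th17 against Th17 1 was higher (7.48% of all genes), and in exFoxp3Th17 against Treg 1 (11.3%). None was called in Treg against Th0 or in Th17 against Treg. Srf itself had a signal of 176.3 in Th0, 118.7 in Treg, 111.6 in Th17 and 135.6 in exFoxp3Th17, with no call. Elk1 was near the floor on every array and Elk4 was level within 2-fold. Elk3 was higher in Th17 (2.67-fold) and exFoxp3Th17 (3.43-fold) than in Th0, and 2.22-fold higher in exFoxp3Th17 than in Treg. Mrtfa was lower than in Th0 in Th17 (3.32-fold) and exFoxp3Th17 (2.63-fold). Mrtfb was higher in exFoxp3Th17, by 2.12-fold against Th17 and 2.35-fold against Th0.

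Genes tied to EGR2 and EGR3 in anergy and activation numbered 16. In Treg against Th0, 7 were higher and 0 lower (median 0.70), and in exFoxp3Th17 against Treg 7 were lower and 1 higher (median 0.00). Nfil3, a basic leucine zipper factor, had a signal of 22.1 in Th0, 329 in Treg, 217.3 in Th17 and 14.3 in exFoxp3Th17. Tnfrsf9, the costimulatory receptor 4-1BB, followed the same split, with 27.1 in Th0, 340.3 in Treg, 168.3 in Th17 and 6.7 in exFoxp3Th17. Both, like Nr4a1, were higher in Th17 and Treg than in Th0 and exFoxp3Th17. In Th17 against Th0, 6 were higher and 2 lower (median 0.30), and in exFoxp3Th17 against Th17, 3 were higher and 4 lower (0.05). There were 3 higher and 3 lower in exFoxp3Th17 against Th0 (-0.05), and 1 higher and 4 lower in Th17 against Treg (0.00). Over all genes, 5.56% were higher and 4.95% lower in Treg against Th0, and 11.3% and 9.94% in exFoxp3Th17 against Treg. These shares were 8.22% and 6.88% in Th17 against Th0 and 7.48% and 7.27% in exFoxp3Th17 against Th17. They were 9.92% and 8.42% in exFoxp3Th17 against Th0 and 5.26% and 4.36% in Th17 against Treg.

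Genes studied with NR4A in regulatory and dysfunctional T cells numbered 14, of which 13 were measured. In Treg against Th0, where 5.56% of all genes were higher and 4.95% lower, 9 of the 13 were higher and 0 lower (median 1.82). For the other comparisons the shares of all genes are those given for the list before. Apart from the gated Foxp3, the largest difference was in Ikzf2, the gene of Helios (34.0-fold). In exFoxp3Th17 against Treg, 2 were higher and 6 lower (-0.54), with Tox2 80.9-fold higher and Il2ra (28.0-fold) and Ikzf2 (13.4-fold) lower. In Th17 against Treg these were 2 higher and 6 lower (-0.52), in Th17 against Th0 5 higher and 1 lower (0.00), and in exFoxp3Th17 against Th0 5 higher and 2 lower (0.30). In exFoxp3Th17 against Th17, 4 were higher, led by Tox (5.63-fold) and Tox2 (5.61-fold), and 2 lower, Il2ra (21.2-fold) and Irf4 (13.1-fold), with a median of 0.27. Il2ra is the IL-2 receptor alpha chain and Irf4 a factor induced by antigen receptor signals. Foxp3, also on this list, was a gate of the sort, so its calls here are no finding.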

How the data were processed

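RNA of 4 mouse CD4 T cell populations, 1 array each, was labelled with biotin from 1 µg of total RNA, per the labels. The authors deposited linear signal intensities, computed by MAS5 according to the notes on processing. The MAS5 version was not among the sources used here. Each array's mean, trimmed of 2% of probe sets at either end, was 100.0, and this scaling was kept. The number of arrays limits the precision, most of all for dim signals.

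Of 45101 probe sets, 64 are controls and 34945 of the rest have a single gene symbol in the platform annotation; symbols were updated through the gene identifier (34741 found in RefSeq). Members were matched on the platform symbol. Each gene was read from its single-gene probe set of highest average log2 signal, and counts over all genes refer to the 11769 of 18193 genes that exceeded the floor on some array. A gene was called at 2-fold with the higher array above the floor; folds against a value below the floor are bounds. Log2 ratios were computed with numpy 2.4.6 and pandas 2.3.3 in Python 3.11.15, and the code for calls was checked on simulated arrays. Motifs were matched by letters in RefSeq promoter windows.

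The members and lists were chosen with earlier results of these data known. The rule named the 10 members with every probe set, Foxp3 and Il17a, up to 4 called genes of each list per comparison, and all 6 input genes. It also named the 3 genes nearest in pattern to each member whose floored signals spanned 4-fold or more. These had a signal of at least 48.4 and no clone name. Xist, Eif2s3y, Cd8a, Cd8b1, Nab1, Egr4, Wt1 and Ier3ip1 were named outside it, after their values were seen. Alternatives were other floors, a pseudocount, other scalings, other probe sets and other fold thresholds.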

Additional observations from a re-analysis of the deposited data

Results flagged for a closer look

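Ier3 went in opposite directions from Th0 to Th17 and from Treg to exFoxp3Th17. Among cells from naive precursors it was higher in Th17 than in Th0 (log2 ratio 5.71), and among cells from Foxp3+ precursors it was lower in exFoxp3Th17 than in Treg (-1.51). The log2 ratios differ by 7.22. With 1 array per population this difference was not tested. The reference cultures also differ, since Treg cells were kept with IL-2 and Th0 cells were not labelled so. Treg was sorted as Foxp3 positive and the other populations as Foxp3 negative, and exFoxp3Th17 alone carried Xist. Against Th0, Ier3 was 3.12-fold higher in exFoxp3Th17.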

How the results depend on the processing

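No paired analysis was possible because each population has 1 array. Of the recomputed log2 ratios of members, 390 kept their call status, 46 fell under the call threshold, 7 came to exceed it and 1 reversed: Egr3 in Treg against Th0, at -0.99 by its second probe set. Among the 390, 9 ratios that were not called changed sign, 6 of Egr3 and 3 of Nr4a2, with other probe sets, the mean of probe sets or another scaling. The number of members called is given in the order Th17 against Th0, exFoxp3Th17 against Th17, exFoxp3Th17 against Treg, Treg against Th0, exFoxp3Th17 against Th0 and Th17 against Treg, where it was 3, 4, 5, 6, 3 and 5 as reported. It was 1, 3, 4, 5, 2 and 3 at 2 times the floor, and 1, 3, 3, 4, 1 and 2 at 4 times the floor. It was 2, 2, 2, 3, 1 and 3 with the floor as a pseudocount, and 6, 4, 5, 6, 3 and 5 both under quantile normalization and when medians of expressed probe sets were equalised. By the second probe set, which only 4 members have above the floor, it was 1, 1, 0, 0, 0 and 0, and the highest array matched for 2 of the 4. It was 7, 6, 6, 7, 5 and 5 at 1.5-fold, 2, 1, 1, 2, 1 and 3 at 3-fold, and 1, 1, 1, 2, 0 and 2 at 4-fold. At 0.5 times the floor all 6 counts were as reported, and when probe sets were averaged they were 2, 3, 4, 4, 3 and 4. Ier3 in exFoxp3Th17 against Th0 lost its call at 4 times the floor (log2 ratio 0.21). Counts over all genes follow in the same order of comparisons. At 0.5 times the floor, 1182, 1192, 1623, 969, 1466 and 781 of 15003 were higher and 1221, 1028, 1480, 888, 1333 and 837 lower. At 2 times, 763, 694, 1098, 475, 944 and 480 of 9927 were higher and 651, 703, 967, 471, 840 and 358 lower. At 4 times, 580, 518, 864, 347, 728 and 363 of 8697 were higher and 484, 572, 774, 340, 665 and 266 lower. With the pseudocount, 833, 651, 1112, 561, 1019 and 482 of 11769 were higher and 614, 722, 1001, 413, 825 and 425 lower. Under quantile normalization, 1031, 778, 1192, 754, 1170 and 599 of 11722 were higher and 719, 931, 1269, 482, 983 and 523 lower. With medians equalised, 1024, 774, 1157, 754, 1158 and 587 of 11768 were higher and 717, 941, 1300, 475, 989 and 555 lower. Of all 11769 genes, 1813, 2136, 2647, 1409, 2258 and 1404 were higher at 1.5-fold, in the same order of comparisons. Lower at 1.5-fold were 2019, 1738, 2152, 1562, 2019 and 1375. At 3-fold, 475, 304, 555, 301, 573 and 261 were higher and 275, 341, 539, 169, 423 and 215 lower. At 4-fold, 309, 160, 292, 180, 371 and 156 were higher and 142, 188, 301, 86, 236 and 122 lower. When probe sets were averaged, 829, 729, 1143, 546, 983 and 515 of 11841 genes were higher. Lower were 732, 739, 1065, 487, 900 and 458. By the second probe set, 425, 422, 595, 254, 513 and 257 of 5743 genes were higher. Lower by it were 471, 388, 528, 313, 496 and 201.

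Genes of the pathway lists called, in the same order, were 40, 34, 40, 30, 39 and 27 of 107. They were 57, 55, 53, 53, 59 and 44 at 1.5-fold, 25, 20, 22, 22, 25 and 13 at 3-fold, 19, 13, 19, 12, 17 and 9 at 4-fold, and 21, 16, 15, 16, 13 and 9 of 60 by the second probe set. Under the floors, scalings, pseudocount and mean of probe sets tried, each of these counts stayed within 1.5 times the reported one.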

Other observations

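Genes of calcineurin and NFAT, the calcium branch of antigen receptor signalling, were mostly level. Of 8, all above the floor, none was called in Treg against Th0 (median log2 ratio 0.26), where 5.56% of all genes were higher and 4.95% lower. Ppp3ca, the catalytic alpha subunit of calcineurin, had a signal of 320.9 in Th0, 164.3 in Treg, 38.9 in Th17 and 135.5 in exFoxp3Th17, and Th17 was the lowest array by more than 2-fold. Nfatc1 was 2.76-fold lower in Th17 than in Th0. Rcan1, a feedback inhibitor of calcineurin, was higher in exFoxp3Th17 than on each other array (143.9 against 57.7 in Th17 and 58.6 in Treg, and 3.00-fold over Th0).

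A further list held 8 genes: the EGR-type zinc finger genes Egr4 and Wt1, the co-repressor Nab1, Ier5l, Ier3ip1 for an IER3-interacting protein, and the 3 Zfp36 genes for RNA-binding proteins. Of these, 6 were above the floor, and Egr4 and Wt1 were below it on all 4 arrays. Nab1, the other NAB co-repressor, was bright and level (901.8 to 1376). Ier5l was called higher in exFoxp3Th17 than on the other arrays, with 48.6 against 6.7 in Th0, 15.1 in Th17 and 18.1 in Treg. Zfp36l2, which encodes an RNA-binding protein that promotes message decay, was 2.65-fold higher in exFoxp3Th17 than in Treg and 2.30-fold lower in Treg than in Th0.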
